A study of Homo sapiens with 6 samples.

Results

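The genes described here encode, from the nucleus, the enzyme complexes of oxidative phosphorylation, and were measured in the human melanoma line WM-266.4 with PIR knocked down. Pirin, the product of PIR, is a nuclear protein that binds iron. Members were all genes whose symbol starts with NDUF, UQCR or ATP5, or with COX followed by 4, 5, 6, 7 or 8, together with SDHA to SDHD, CYC1 and CYCS. Each was represented by its brightest probe set annotated with that gene alone. The rule found 92 of the 19775 genes that had such a probe set. Of these 92, 87 encode proteins and 5 are non-coding RNAs or pseudogenes whose symbols begin with the same letters.

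The mitochondrial respiratory chain passes electrons from NADH (complex I) and succinate (complex II) through ubiquinone to complex III, then through cytochrome c to complex IV, which reduces oxygen. Complexes I, III and IV pump protons across the inner membrane, and complex V, the ATP synthase, uses the returning protons to make ATP. Complex II is wholly encoded in the nucleus, and the other complexes combine nuclear and mitochondrial gene products. In melanoma, the coactivator encoded by PPARGC1A is known to raise these genes in some tumours under the lineage factor MITF.

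There were 3 groups of WM-266.4 cells. The siPIR cells received 4 pooled siRNA duplexes against PIR (a siGENOME Smartpool), the siCTR cells 4 pooled duplexes with no target (siCONTROL), both at 200 pmol with the lipid Oligofectamine, and the NO cells went through the same procedure with no oligonucleotide. In every group cells were transfected in serum-free medium 24 h after seeding and collected 72 h later. RNA of 3 extractions was mixed for each group and the labelled mixture was read on 2 arrays of the Affymetrix type HG-U133 Plus 2, so each group is 1 RNA pool and its 2 arrays are repeat hybridisations. No test of the conditions was possible, the number of arrays limits the precision, and ranges in parentheses cover the 4 array pairs, hence hybridisation error only. Where a pair of log2 differences is given, the first is siPIR minus siCTR and the second siPIR minus NO. Fewer cells of a type and less RNA per cell cannot be told apart in such pools.

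Signals are the authors' scaled intensities, and differences are on a log2(signal + 5.4) scale, which understates differences of dim genes. A gene was measured when a pool mean exceeded 70.2, the median of all values, and bright when one exceeded 458.4, the 75th percentile; 13071 genes were measured and 8272 were bright. PIR itself was lower in the siPIR pool by a log2 difference of -5.09 against siCTR and -5.17 against NO. For ACTB the 3' over 5' ratio, which reads RNA integrity, was 1.13 on both siPIR arrays and 1.23 to 1.27 on the others, and its part in the results below was not tested. Of 8 melanocyte lineage markers 7 had a probe set and all 7 were bright, with summed signals of 95250 to 103249 over the 6 arrays. Few markers of other cell types were measured (3 of 6 for fibroblasts, 1 of 6 for keratinocytes, 1 of 4 for leukocytes, 2 of 5 for endothelial cells). The leukocyte sum was 339 and 363 on the siPIR arrays and 164 to 203 on the others, with CD14 the measured marker, and the fibroblast sum, mostly COL1A2, was 22951 and 23946 against 12639 to 15806 on the others. Of the other measured fibroblast markers, COL1A1 differed by -0.091 and 0.71 and LUM by -0.44 and -0.61 (siPIR minus siCTR, then minus NO). The keratinocyte sum, mostly KRT10, was 2681 and 2786.5 on the siPIR arrays and 3268 to 3741.5 on the others. The part of these lists in the results was not tested.

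As a group, the oxidative phosphorylation genes had median differences near 0 between the siPIR pool and either control. Of the 92 members 87 were measured and 80 of those were bright; the lowest of the bright ones had a highest pool mean of 951 signal units. The median log2 difference of the 87 was -0.0039 against siCTR and 0.0020 against NO, beside medians of 0.046 and 0.033 over all measured genes. Over 4 pairs of arrays the 2 medians of the members had SDs of 0.022 and 0.020. Positive and negative differences were about even, with 43 positive and 44 negative against siCTR and 44 and 43 against NO. A gene is called here when the pools' arrays do not overlap and its log2 difference reaches 0.5 in either direction (1.41-fold). Against siCTR 5 measured members were called higher (13.9% of all measured genes were) and 3 lower (12.3%). Against NO 3 were called higher (15.2%) and 4 lower (15.5%). Called in the same direction against both controls were 3 higher (8.77% of all measured genes) and 3 lower (9.45%). At a 2-fold difference 1 member was higher (3.75%) and 1 lower (4.26%) than siCTR, 1 higher (3.67%) and 1 lower (5.48%) than NO, and 0 higher (1.52%) and 1 lower (3.22%) than both. These were the dim COX6B2, NDUFB2-AS1 and ATP5MC2P1.

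Among the bright members 3 were called higher (10.3% of bright genes) and 2 lower (12.7%) than siCTR, 2 higher (14.4%) and 2 lower (13.8%) than NO, and 2 higher (8.21%) and 2 lower (10.6%) than both. The quartiles of the 80 were -0.17 and 0.14 against siCTR, then -0.17 and 0.20 against NO, while those of all bright genes were -0.25 and 0.26, then -0.26 and 0.32. A log2 difference of at most 0.25 in size (1.19-fold) from both controls was found for 51 of the 80 (63.8%), beside 34.5% of all bright genes. Since the members are among the brightest genes on the arrays, the comparison was repeated above 5000 signal units, a level chosen after the values were seen. There 76.8% of 56 members and 56.2% of 1380 genes lay within 0.25 of siCTR. Within 0.25 of NO lay 67.9% of these members and 48.7% of these genes. The quartiles of the 56 members were -0.18 and 0.14 against siCTR and those of the 1380 genes -0.19 and 0.23. Against NO they were -0.17 and 0.20 for the members and -0.18 and 0.31 for the genes. Repeat arrays of a pool differed by a median of 0.049 to 0.059 for the bright members and 0.085 to 0.095 for all bright genes. Even small differences often had arrays that did not overlap: 32 bright members were higher (39.8% of bright genes) and 31 lower (35.7%) than siCTR in this weaker sense. Against NO 32 were higher (43.6%) and 31 lower (35.6%). Against both controls at once, 27 were higher (34% of bright genes) and 24 lower (29.1%).

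**Figure D1:**
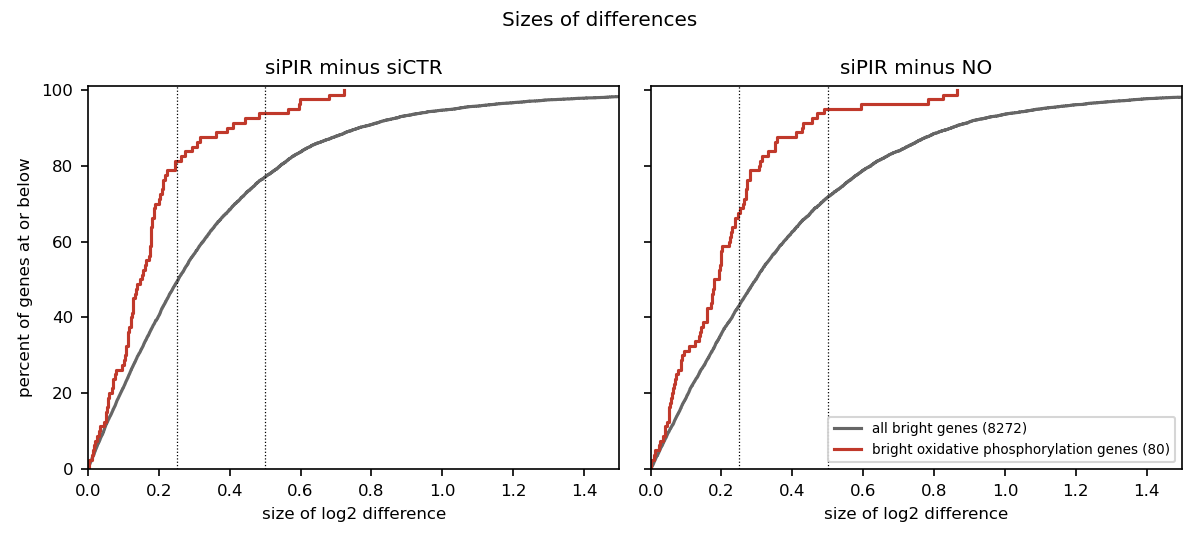
Share of genes (vertical axis, percent) whose log2 difference is at most a given size (horizontal axis), for the 80 bright oxidative phosphorylation genes in red and all 8272 bright genes in grey, in the siPIR pool against siCTR (left) and NO (right). Dotted lines mark 0.25 and 0.5; at 0.25 the red line stands at 81.3% against siCTR and 67.5% against NO, the grey line at 49.3% and 43.1%.

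**Figure D2:**
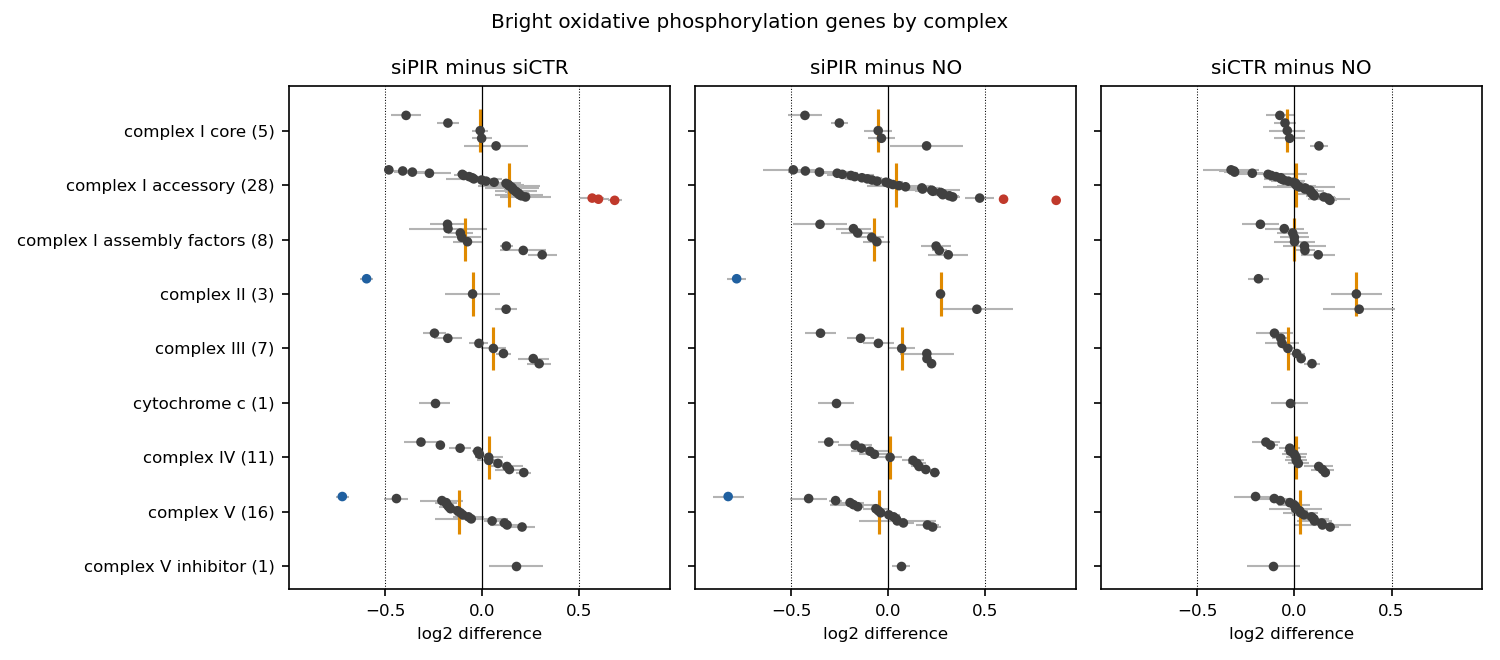
Log2 difference (horizontal axis) of each bright member, by complex (rows, with the number of genes), for siPIR minus siCTR, siPIR minus NO and siCTR minus NO. Points are differences of pool means, grey lines the range over 4 pairs of arrays, orange bars group medians, dotted lines -0.5 and 0.5, red points genes called higher and blue points genes called lower; 3 accessory subunits of complex I stand at the right and 1 subunit each of complexes II and V at the left.

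Complex I is the largest complex of the chain, and the genes called higher among the bright members all belonged to its accessory subunits, which surround the catalytic core and are needed to assemble it. Of 28 measured accessory subunits 3 were called higher (10.3% of bright genes) and 0 lower (12.7%) against siCTR. Against NO 2 were called higher (14.4%) and 0 lower (13.8%). The share of higher calls was thus near that of all bright genes against siCTR and below it against NO. All 28 were bright. With arrays that did not overlap at a difference of any size, 16 were higher (39.8% of bright genes) and 7 lower (35.7%) than siCTR, and 13 were higher (43.6%) and 10 lower (35.6%) than NO. The median of the 28 was 0.13 against siCTR and 0.038 against NO.

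NDUFA3, a small subunit of the membrane arm, had signals of 7669.5 and 7589.5 with siPIR, 4852 and 4661 with siCTR and 4173.5 and 4205 in NO. Both siPIR values lay above all 4 control values, and the siCTR values lay above those of NO. The log2 difference was 0.68 against siCTR (0.64 to 0.72; 1.6-fold higher) and 0.86 against NO (0.85 to 0.88; 1.82-fold). NDUFA13, also known as GRIM-19 and studied as a regulator of cell death besides its place in complex I, had signals of 19160.5 and 19064 with siPIR, 13094 and 12179 with siCTR and 12654 and 12683 in NO. The 4 control values overlapped between the groups and the siPIR values stood above them, with log2 differences of 0.60 (0.54 to 0.65) and 0.59 (0.59 to 0.60). NDUFA7, an accessory subunit near the matrix arm, was called against siCTR alone, as its difference from NO fell just short of 0.5; it is named after its values were seen. Its signals were 3167 and 3384 with siPIR, 2191 and 2231 with siCTR and 2319.8 and 2405 in NO, without overlap, and its differences were 0.57 and 0.47.

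In the other direction, NDUFB5, a membrane arm subunit, came nearest to a call against siCTR. Its signals were 8884 and 9081 with siPIR, 12479.9 and 12615 with siCTR and 11949 and 12224 in NO. The siPIR values lay below all control values, and the differences of -0.48 (-0.51 to -0.46) and -0.43 (-0.46 to -0.40) stayed under 0.5 in size. NDUFA5 (-0.27 and -0.49), NDUFA6 (-0.36 and -0.26) and NDUFB9 (-0.41 and -0.24) also had lower signals on both siPIR arrays than on any control array, without reaching 0.5. Smaller positive differences from both controls were more common: those of NDUFB1, NDUFB2, NDUFB10, NDUFB11, NDUFAB1, NDUFA1, NDUFA2 and NDUFA12 lay from 0.12 to 0.22 with siCTR as control and from 0.17 to 0.33 with NO, the arrays not overlapping. NDUFAB1 is the mitochondrial acyl carrier protein, which serves lipoic acid synthesis as well as complex I. NDUFC1 overlapped both controls, with differences of -0.0039 and 0.0023. Accessory subunits therefore spread in both directions within a single complex, from -0.48 to 0.68 against siCTR and from -0.49 to 0.86 against NO.

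The core subunits of complex I include those that carry the flavin and the iron-sulphur clusters through which electrons pass. Of 5 measured core subunits 0 were called against either control, beside 10.3% to 14.4% of bright genes in each direction. The medians were -0.011 and -0.053. NDUFV2, which holds an iron-sulphur cluster beside the NADH site, had signals of 4939 and 5191 with siPIR, 6850.0 and 6459 with siCTR and 6593 and 7062 in NO; both siPIR values were below the rest and the differences were -0.39 and -0.43. NDUFS1, with several clusters, differed by -0.18 and -0.25, also without overlap. Other bright probe sets of NDUFS1 gave 0.29 and -0.073, and -0.16 and -0.72, so its direction against siCTR depends on the probe set. NDUFV1, the NADH-binding subunit, differed by 0.070 and 0.20, and its siPIR arrays (5623 and 4551.5) were uneven, so that they overlapped siCTR. NDUFS3 (-0.011 and -0.036) and NDUFS7 (-0.0040 and -0.053) overlapped both controls.

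Assembly factors build complex I and are not part of the finished enzyme. Of 8 measured NDUFAF genes 0 were called (10.3% to 14.4% of bright genes were in each direction), and their medians were -0.092 and -0.073. NDUFAF3, an early assembly factor, had the largest like-signed positive difference, with signals of 4465 and 4236 with siPIR, 3422 and 3605 with siCTR and 3676 and 3353.5 in NO and differences of 0.31 and 0.31. NDUFAF6 (-0.18 and -0.18) was lower than both controls without overlap, and NDUFAF1 differed by -0.18 and -0.35, overlapping siCTR.

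Complex II, succinate dehydrogenase, links the tricarboxylic acid cycle to the chain, and here its 3 measured subunits went different ways (SDHB was not analysed here). SDHD, a membrane anchor of the complex, was called lower against both controls. Its signals were 3633 and 3566.5 with siPIR, 5517 and 5376 with siCTR and 6039 and 6351 in NO. The siPIR values were lowest, the siCTR values intermediate and the NO values highest, without overlap, and the log2 difference was -0.60 against siCTR (-0.63 to -0.56; 1.51-fold lower) and -0.78 against NO (-0.83 to -0.73; 1.72-fold). SDHC, the other anchor, had 3858 and 3777 with siPIR, 3620.0 and 4319 with siCTR and 3162 and 3176 in NO, and differed by -0.051 and 0.27; its siPIR arrays lay inside the siCTR pair and above the NO pair. SDHA, the flavoprotein that oxidises succinate, had 3993 and 3839.9 with siPIR, 3523 and 3674 with siCTR and 2562 and 3179 in NO, and differed by 0.12 and 0.46 with siPIR arrays above both pairs. Without NO replicate 2 SDHA was called higher against NO (0.61). The SDHA and SDHC values come from probe sets marked as able to bind several transcripts (suffix _x_at). Another bright probe set of SDHC differed from NO by -1.05, so the direction of SDHC against NO depends on the probe set.

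ATP5F1E encodes the epsilon subunit of the ATP synthase stalk, and it was the bright member with the largest negative difference. Its signals were 14455 and 14086 with siPIR, 23279 and 23795 with siCTR and 24236 and 26396 in NO. Both siPIR values were far below the control values, and the log2 differences were -0.72 (-0.76 to -0.69; 1.65-fold lower) and -0.83 (-0.91 to -0.75; 1.77-fold). A dimmer probe set of ATP5F1E differed by -0.87 and -1.36. Of 16 measured ATP synthase subunits ATP5F1E was the 1 called lower against siCTR (12.7% of bright genes were) and against NO (13.8%). Called higher were 0, beside 10.3% of bright genes against siCTR and 14.4% against NO. The medians were -0.12 and -0.046. Negative were 12 of 16 against siCTR (3936 of 8272 bright genes) and 9 of 16 against NO (3752 of 8272).

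The catalytic head of complex V consists of alpha and beta subunits around a gamma shaft. ATP5F1B, the beta subunit that holds the catalytic sites, had signals of 12347 and 12939 with siPIR, 16849 and 17522 with siCTR and 16108 and 17536 in NO. Both siPIR values were below the control values, and the differences of -0.44 and -0.41 did not reach 0.5. ATP5F1A, the alpha subunit, differed by -0.19 and -0.18 and ATP5F1C, the gamma subunit, by -0.10 and -0.052. The delta subunit ATP5F1D differed by 0.11 and 0.040. ATP5MC1, ATP5MC2 and ATP5MC3 are separate genes for subunit c, which forms the proton-driven ring, and differed by -0.21 and -0.064, -0.16 and -0.16 and -0.17 and -0.20. Of the remaining stalk and membrane subunits, ATP5MJ (0.20 and 0.20) and ATP5MK (0.13 and 0.23) had the largest positive differences, and ATP5PF differed by -0.072 and -0.27. ATP5IF1, the inhibitor that blocks ATP hydrolysis by the synthase, had 3448 and 3334 with siPIR, 3255 and 2773 with siCTR and 3286.5 and 3194.5 in NO; its differences of 0.17 and 0.065 were small, and another bright probe set gave -0.38 and -0.78. ATP5MF was below the measured range on its own probe set.

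**Figure D3:**
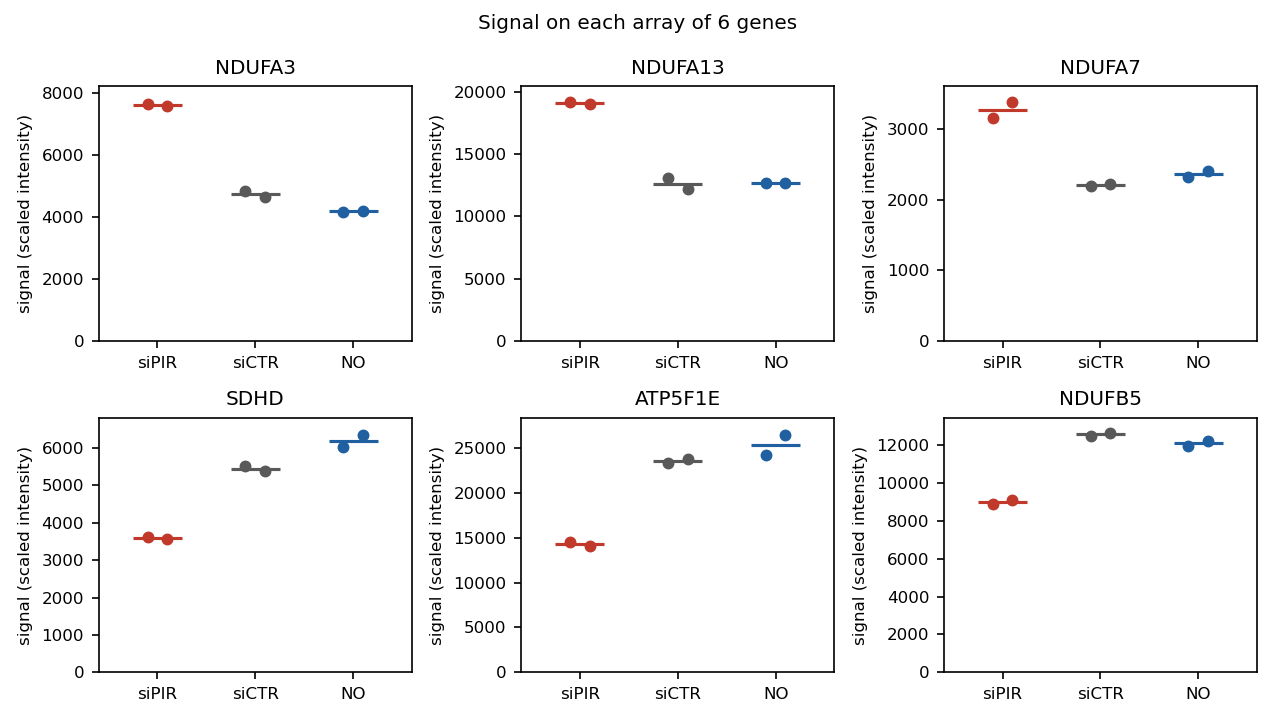
Signal (vertical axis, scaled intensity, from 0) on each array for the accessory complex I subunits NDUFA3, NDUFA13, NDUFA7 and NDUFB5, the complex II anchor SDHD and the ATP synthase subunit ATP5F1E, in the siPIR, siCTR and NO pools. Points are the 2 repeat arrays of a pool and bars their mean; in all 6 genes both siPIR arrays lie outside the range of the 4 control arrays.

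Complex III and cytochrome c carry electrons from ubiquinol to complex IV. Of 7 measured complex III subunits 0 were called (10.3% to 14.4% of bright genes were in each direction), with medians of 0.057 and 0.068. UQCRQ, a small subunit, had 13767 and 13465 with siPIR, 10766 and 11479 with siCTR and 11667 and 11673 in NO, and was higher without overlap, at 0.29 and 0.22. UQCRC2, a core protein, had 6887 and 6676 with siPIR, 7858 and 8242 with siCTR and 8298 and 9002 in NO, and was lower without overlap, at -0.25 and -0.35; another bright probe set gave -0.36 and -0.55. UQCR11 differed by 0.26 and 0.20 and CYC1, cytochrome c1, by -0.18 and -0.14. CYCS, cytochrome c itself, also a trigger of apoptosis when released from mitochondria, had 24876 and 26229 with siPIR, 29455 and 31151 with siCTR and 29701.5 and 31972 in NO. Its siPIR values were the lowest, with differences of -0.25 (-0.32 to -0.17) and -0.27 (-0.36 to -0.18), short of a call.

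Of the 11 measured general subunits of complex IV, cytochrome c oxidase, 0 were called. Of bright genes 10.3% were called higher and 12.7% lower than siCTR, and 14.4% higher and 13.8% lower than NO. The medians of the 11 were 0.032 and 0.0086. Within 0.25 of siCTR lay 10 of 11 (49.3% of bright genes) and within 0.25 of NO 10 of 11 (43.1%). The exception was COX4I1, the subunit that binds ATP as a regulator, with 13405 and 12642 with siPIR, 15726 and 16714 with siCTR and 15978 and 16241 in NO. Its siPIR values were lowest and its differences were -0.32 and -0.31 on an _x_at probe set; another bright probe set gave -0.53 and -0.67. COX6A1 had the largest positive difference from siCTR in the group, with 21565 and 20954 with siPIR, 18108 and 18573 with siCTR and 18786 and 18419.7 in NO and differences of 0.21 and 0.19. COX7A2 (0.033 and 0.0086) overlapped both controls, and COX7A2L, which takes part in joining complexes into supercomplexes, differed by -0.22 and -0.072. COXFA4, formerly NDUFA4 and now counted as a complex IV subunit, is outside the rule by its present symbol and differed by -0.029 and -0.16.

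Forms of complex IV subunits known from particular tissues or conditions were dim, and 3 of 6 were measured. COX4I2, the counterpart of COX4I1 in lung and in low oxygen, had 163 and 130.2 with siPIR, 87.3 and 169.5 with siCTR and 197 and 221 in NO, and differed by 0.25 and -0.50; its siPIR and siCTR arrays overlapped, and its call against NO was lost without siPIR replicate 2 (-0.35) or NO replicate 2 (-0.42), and with 4 times the pseudocount, quantile normalization or median centring (-0.46, -0.45 and -0.49). COX6B2, a testis form, had 119 and 56.5 with siPIR, 39.5 and 35.6 with siCTR and 99.1 and 74.7 in NO, with differences of 1.03 and -0.058. COX6A2, the muscle form, differed by -0.23 and 0.59 with overlapping arrays. COX7A1, COX7B2 and COX8C were below the measured range. Repeat arrays of COX6B2 and COX6A2 differed by more than 2-fold in a pool, so their differences are given as values only.

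The 4 measured non-coding members were also dim. NDUFB2-AS1, an antisense RNA, had 97.2 and 97.6 with siPIR, 55.8 and 71.5 with siCTR and 13.9 and 17.2 in NO, and was called higher against siCTR (0.58) and NO (2.30), while siCTR itself was above NO by 1.72. Its call against siCTR was lost without siCTR replicate 1 (0.42). The pseudogene ATP5MC2P1 had 21.6 and 125 with siPIR, 184 and 171 with siCTR and 273 and 249 in NO, and was called lower, at -1.62 and -2.16; its siPIR arrays differed widely, and without siPIR replicate 1 the difference from siCTR was -0.48. A pseudogene can share probe matches with its parent family, so this value is uncertain. NDUFV1-DT (0.40 and 0.22) and NDUFV2-AS1 (0.29 and 0.17) were not called, and COX6A1P1 was below the measured range.

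Between the controls the members were closer still. The median of siCTR minus NO was 0.0060 over 87 members, beside 0.0067 over all measured genes, and 75 of 80 bright members lay within 0.25 (79.1% of bright genes did). Of the bright members 0 were called in either direction, where 1.72% of bright genes were higher and 1.52% lower. Of the 87, 2 were called higher (3.8% of measured genes) and 3 lower (6.59%), and these 5 were dim: NDUFB2-AS1 and COX6A2 (0.82) higher, COX6B2 (-1.09), COX4I2 (-0.75) and ATP5MC2P1 (-0.54) lower. The NO arrays of COX6A2 (36.8 and 82.1) and the siCTR arrays of COX4I2 (87.3 and 169.5) differ widely, so their calls are uncertain. The wide gap of COX6B2 was in the siPIR pool, outside this comparison, but its signals were dim. At 2-fold 1 was higher (1.04%) and 1 lower (2.47%). Without NO replicate 1 the count of higher members was 1. The largest differences of bright members between the controls were those of SDHA (0.33), SDHC (0.32), NDUFB7 (-0.33), NDUFA9 (-0.31) and NDUFB6 (-0.31). These values and the 0 calls of bright members hold for the representing probe sets. Of 37 other bright probe sets 2 were at -0.5 or lower, 1 of SDHC (-0.67) and 1 of NDUFS1 (-0.56), and 0 at 0.5 or higher. The direction of SDHC between the controls thus depends on the probe set.

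Many of these genes have more than 1 probe set, and the choice of the brightest matters for some. Other bright probe sets were found for 25 members, 37 in all. Of these, 26 differed from the representing probe set by at most 0.25 in siPIR minus siCTR and 24 in siPIR minus NO. The other probe sets were lower than the representing one in 26 of 37 cases in each of the 2 comparisons, and over all 37 the median was -0.10 (siCTR as control) and -0.16 (NO). A count of 26 of 37 was also found for siCTR minus NO, with a median of -0.064 beside 0.049 for the representing sets, so the tilt is not limited to the siPIR comparisons. ATP5MG, a membrane subunit of complex V, differed by -0.13 and -0.040 on the representing set and by -1.54 and -1.30 on another, which had a highest pool mean of 2245. For ATP5PO, which joins the stalk to the head, the pairs were -0.11 and 0.027 and -0.76 and -1.07, and for NDUFAF7, an arginine methyltransferase of complex I assembly, 0.12 and 0.25 and -0.96 and -1.43. No value here shows which transcripts the others detect.

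**Figure D4:**
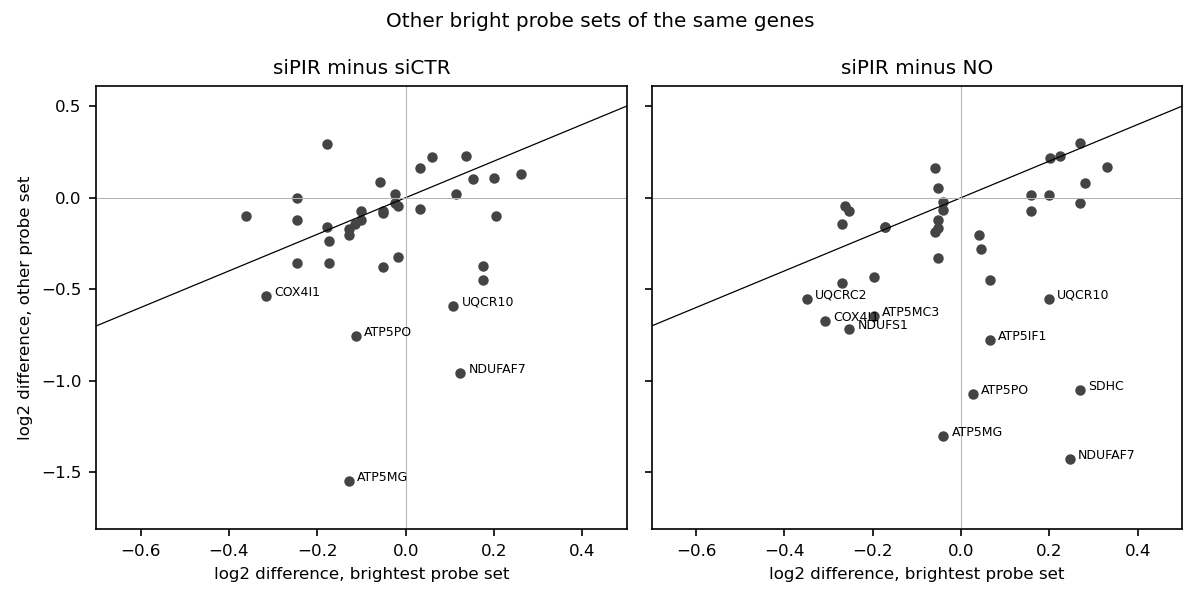
Log2 difference on the brightest probe set of a gene (horizontal axis) against that on another bright probe set of the same gene (vertical axis), for siPIR minus siCTR (left) and siPIR minus NO (right); each point is 1 of 37 other probe sets of 25 members. The diagonal marks equal values, and names mark points below -0.5; 26 of 37 points lie below the diagonal in each panel.

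The mitochondrial genome encodes the remaining subunits, and 7 of its protein genes had a probe set. The following 5 had small positive differences in the siPIR pool against both controls: ND2 (0.21 and 0.32), ND4 (0.17 and 0.20), COX1 (0.17 and 0.23), COX2 (0.18 and 0.28) and ATP6 (0.18 and 0.091), none of them called and ATP6 overlapping NO. Another bright probe set of ATP6 gave -0.076 and -0.89, so its direction depends on the probe set. COX2 had 61100.4 and 60682 with siPIR, 53899.6 and 53242 with siCTR and 48040.3 and 52559 in NO, without overlap of siPIR and controls. ND6, the protein gene of the light strand, was called lower, with 313 and 418 with siPIR, 623 and 527.5 with siCTR and 921 and 798 in NO and differences of -0.66 and -1.23; siCTR was also below NO (-0.58). COX3 had 2864.5 and 3632 with siPIR, 3669 and 3698 with siCTR and 7108 and 8901 in NO on an _x_at probe set, and was lower than NO in the siPIR (-1.30) and siCTR (-1.11) pools alike.

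Factors that govern respiratory genes were examined next. Of 16 measured regulators 3 were called lower than both controls (9.45% of measured genes) and 0 higher (8.77%), with medians over the list of -0.12 against siCTR and -0.19 against NO. PPARGC1A, the coactivator of mitochondrial biogenesis, had 317 and 359 with siPIR, 570.3 and 640.1 with siCTR and 731 and 800.4 in NO, with no overlap and log2 differences of -0.83 and -1.17. TFAM, which packages mitochondrial DNA and starts its transcription, had 748 and 669 with siPIR, 1229 and 1304 with siCTR and 1496 and 1424 in NO, and differed by -0.84 and -1.04 on an _x_at probe set; its other measured probe sets gave 0.052 to -0.40 against siCTR and -0.88 to -0.47 against NO. GABPA, the ETS factor also called NRF2, differed by -0.57 and -0.98, but another bright probe set gave 0.075 and 0.057. NRF1 differed by 0.12 and -0.18 and ESRRA by 0.22 and 0.30, and MITF by -0.074 and -0.20, none of them called.

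**Figure D5:**
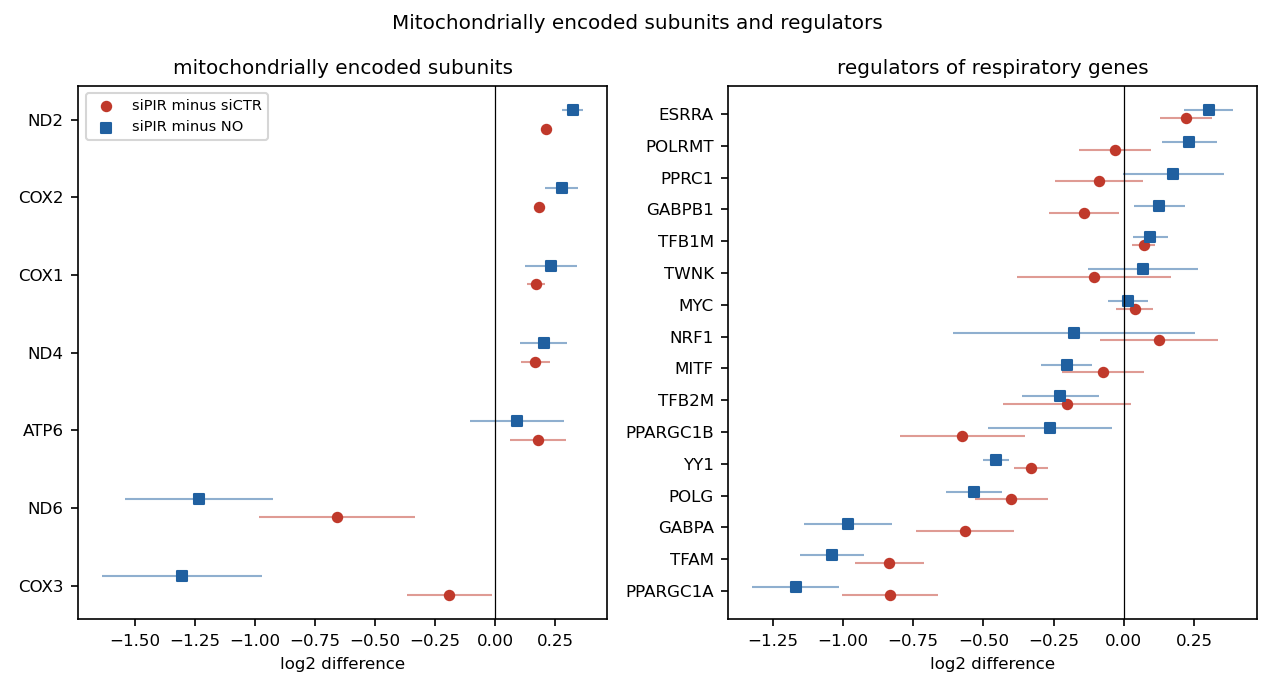
Log2 difference (horizontal axis) of 7 mitochondrially encoded subunits (left) and 16 regulators of respiratory genes (right), for siPIR minus siCTR (red circles) and siPIR minus NO (blue squares), each with the range over 4 pairs of arrays. PPARGC1A, TFAM and GABPA have the lowest differences from NO among the regulators, and ND6 and COX3 lie below the other 5 mitochondrial genes in both comparisons.

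Other genes of the pathway were counted in the same way. Of 47 measured assembly factors outside the NDUFAF group 1 was called higher than both controls (8.77% of measured genes) and 4 lower (9.45%). The lower share was near that of all measured genes and the higher share below it. The medians were -0.018 and -0.010. SDHAF3, a complex II assembly factor, had 322 and 423 with siPIR, 812 and 821 with siCTR and 1676 and 1427 in NO, and differed by -1.13 and -2.05, while siCTR minus NO was -0.92. NUBPL, which delivers iron-sulphur clusters to complex I, differed by -0.52 and -0.57, LYRM7 and ATPAF1 were the other lower ones (ATPAF1 had 0.27 and 0.69 on another probe set), and COX14 was the higher one (0.53 and 0.53). Of 14 measured genes of the tricarboxylic acid cycle and pyruvate dehydrogenase 1 was lower than both controls (9.45% of measured genes), PDHB, the E1 beta subunit (-0.96 and -0.84), and 0 were higher (8.77%). Of 18 measured carriers, pores and ubiquinone synthesis genes 2 were lower (9.45% of measured genes) and 1 higher (8.77%): the outer membrane channel VDAC3 (-0.56 and -0.62), PDSS1, which makes the ubiquinone tail (-0.76 and -0.76), and COQ4 (0.85 and 0.89). Another bright probe set fell short of a call for VDAC3 (-0.28 and -0.35) and for COQ4 (0.11 and 0.24).

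Promoters of these genes are known for binding sites of NRF1 and of ETS factors such as GABPA. The 250 bases before the annotated start are shown for the 4 bright members called against both controls and for CYCS, so that genes that differed in opposite directions can be compared. They are from RefSeq (GRCh38.p14), read along the gene's strand: NDUFA3 at chr19:54102605-54102854 (plus strand), NDUFA13 at chr19:19515975-19516224 (plus), SDHD at chr11:112086623-112086872 (plus), ATP5F1E at chr20:59032336-59032585 (minus) and CYCS at chr7:25125261-25125510 (minus). Capitals mark exact matches, on either strand, to the motifs searched, which are listed in the next paragraph.
NDUFA3: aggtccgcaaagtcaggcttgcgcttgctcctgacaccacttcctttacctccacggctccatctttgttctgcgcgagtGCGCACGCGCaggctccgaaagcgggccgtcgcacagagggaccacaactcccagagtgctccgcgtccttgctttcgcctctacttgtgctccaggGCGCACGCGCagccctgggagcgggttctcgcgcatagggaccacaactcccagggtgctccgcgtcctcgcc
NDUFA13: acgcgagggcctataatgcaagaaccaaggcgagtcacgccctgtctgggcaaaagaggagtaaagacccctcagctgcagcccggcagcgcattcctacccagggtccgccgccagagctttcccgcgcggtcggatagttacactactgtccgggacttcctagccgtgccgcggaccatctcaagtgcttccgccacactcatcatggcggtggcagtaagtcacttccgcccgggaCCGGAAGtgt
SDHD: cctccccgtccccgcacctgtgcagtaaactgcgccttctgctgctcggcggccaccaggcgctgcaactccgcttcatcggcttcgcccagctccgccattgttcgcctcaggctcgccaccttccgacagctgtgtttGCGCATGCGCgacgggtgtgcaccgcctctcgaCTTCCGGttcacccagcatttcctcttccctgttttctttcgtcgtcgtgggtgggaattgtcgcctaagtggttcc
ATP5F1E: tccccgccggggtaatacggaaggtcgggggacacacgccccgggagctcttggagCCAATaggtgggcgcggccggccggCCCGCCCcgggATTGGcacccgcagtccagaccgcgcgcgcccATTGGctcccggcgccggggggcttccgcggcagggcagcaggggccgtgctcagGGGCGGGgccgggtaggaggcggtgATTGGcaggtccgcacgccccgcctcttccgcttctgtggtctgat
CYCS: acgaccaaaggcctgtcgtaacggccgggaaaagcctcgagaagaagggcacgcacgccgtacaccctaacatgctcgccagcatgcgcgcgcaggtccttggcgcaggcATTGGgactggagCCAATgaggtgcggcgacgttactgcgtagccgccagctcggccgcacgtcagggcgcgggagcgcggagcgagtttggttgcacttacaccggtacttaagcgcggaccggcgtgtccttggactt
NDUFA3 holds 2 NRF1 matches, beginning 170 and 73 bases before the start, and NDUFA13 holds 1 ETS match at 10 bases. SDHD, which was lower, holds an NRF1 match at 110 bases and an ETS match at 77 bases. ATP5F1E holds 4 CCAAT and 2 SP1 matches, and CYCS 2 CCAAT matches. The NRF1 letters thus stand before a gene that was higher and one that was lower.

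Promoters were found for 74 of the 87 protein-coding members, 70 of them bright. The motifs, searched on both strands and allowed to overlap one another, were GCGCA, any base, then GCGC (NRF1), CCGGAAG (ETS), AAGATGGC (YY1), GGGCGGG (SP1), CCAAT (NF-Y), TNAAGGTCA (ERR receptors), CACGTG (the E-box of MITF, USF and MYC) and TGACGTCA (CREB and ATF). NRF1 letters stood in 13 of the 70 (18.6%), in 13.8% of the promoters of bright protein-coding genes and in 8.72% of those of all protein-coding genes. For ETS the shares were 25.7%, 20.8% and 14.0%. SP1 letters were in 35.7% of the members' promoters and 61.0% of those of bright genes, and CCAAT in 34.3% and 42.8%. Over the promoters of all protein-coding genes SP1 stood in 48.9% and CCAAT in 40.2%. The E-box stood in 7 of the 70, in 826 of the 6890 promoters of bright genes and in 9.73% of all. CREB letters stood in 5.71%, 3.82% and 2.73%. YY1 letters stood in 1 member (ATP5PF), 2.55% and 1.77%, and ERR letters in 1 member (NDUFB4), 0.639% and 0.821%. The 13 members with NRF1 letters had a median difference of 0.12 from siCTR and 0.088 from NO, and the 57 without them -0.0039 and -0.036. The 18 members with ETS letters had medians of 0.10 and 0.075, and the 52 without them 0.0073 and 0.0054. The split ran the other way for SP1, with medians of -0.053 and -0.072 in the 25 members with its letters and 0.057 and 0.065 in the 45 without. For CCAAT the medians were 0.094 and 0.060 in the 24 with and 0.0073 and -0.0052 in the 46 without. Over all bright protein-coding genes the medians with and without NRF1 letters were 0.0061 and 0.021 against siCTR, and those with and without ETS letters 0.011 and 0.021. With and without SP1 letters they were 0.025 and 0.011, the other way from the members, and for CCAAT 0.016 and 0.021. Against NO the medians of these genes with and without letters were 0.026 and 0.050 (NRF1), 0.035 and 0.048 (ETS), 0.060 and 0.025 (SP1) and 0.035 and 0.052 (CCAAT). Such matches are descriptions of these windows and show no binding.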

How the data were processed

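Intensity values of 54675 probe sets on 6 arrays were deposited by the authors on a linear scale. Per the submitters' processing notes GCOS was used, of a version not given in the sources used here. The mean without the lowest and highest 2% was 500 on each array, the pattern of global scaling, which hides any shift common to all RNA. All 6 columns were matched to samples and 0 were left over.

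Of the probe sets, the annotation names a single gene for 41097, several genes for 1801 and does not list 11777; 99.9% of single-gene entries matched RefSeq (GRCh38.p14) by Entrez identifier and 0 symbols changed. Members with no probe set of their own, 11 protein-coding genes such as SDHB and UQCRFS1, were not analysed here. The pseudocount of 5.4 is the 10th percentile of all values. Repeat arrays were averaged on the log2 scale. Because each group is 1 pool, no p-value was computed. Calls used 0.5, with 2-fold (1) as an alternative; other alternatives varied the pseudocount, the dim filter, the probe set, the scaling and the arrays used. The calling script was tested on simulated data. Members, lists and thresholds were chosen with earlier results of these data known. Within each complex the text names members called against both controls, or else the most different in each direction, fixed genes (complex II, CYCS, ATP5IF1, paralogues), the largest siCTR minus NO differences and any 2-fold member; further members were named after their values were seen. Work used Python 3.11.15, numpy 2.4.6, pandas 2.3.3 and matplotlib 3.10.9.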

Additional observations from a re-analysis of the deposited data

How the results depend on the processing

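No paired analysis was possible because each group is 1 RNA pool and its numbered arrays are repeat hybridisations. The members' medians were at most 0.072 in size, on either side of 0, under each alternative run. Against NO the members' median was -0.072 as the mean over probe sets, -0.072 without _x_at and _s_at probe sets and -0.057 after quantile normalization. Over all measured genes these 3 settings gave -0.0074, -0.0022 and 0.047 against NO. Against siCTR the members' median was 0.026 without the dim filter, beside 0.038 over all genes. Between siCTR and NO the same 3 settings gave members' medians of -0.024, -0.030 and -0.019. The counts of lower members depended most on the probe set. As the mean over probe sets 5 were lower than siCTR, 11 lower than NO and 5 lower in siCTR than NO. Without _x_at and _s_at probe sets these were 7, 7 and 6, with 5 lower than both controls, over 68 measured members. Shares of all genes called were not computed for these probe set settings or with an array left out, so such counts are values only. In the main setting the lower shares of measured genes were 12.3% (siCTR), 15.5% (NO) and 6.59% (siCTR minus NO). With bright genes only, 3 were higher than siCTR, 2 lower than NO, and 0 higher and 0 lower in siCTR than NO. At 2-fold, 1 was higher and 1 lower in each of the 3 comparisons, and 0 higher and 1 lower than both controls. With an array left out, medians ranged from -0.017 to 0.019 (siCTR), -0.020 to 0.016 (NO) and -0.014 to 0.029 (siCTR minus NO). Counts then ranged from 4 to 7 higher and 2 to 4 lower than siCTR, 3 to 5 higher and 3 to 5 lower than NO, 1 to 2 higher and 2 to 3 lower between the controls, and 2 to 4 higher and 2 to 3 lower than both. The 5 higher than NO arose without siPIR replicate 1 or NO replicate 2. With 1 array in a pool, non-overlap is easier to reach. COX7A1, below the measured range, ranged from -0.62 to 1.82 against NO. The cause of the probe set dependence was not tested. Of the alternative values of named members, 756 kept their side of the call threshold, 13 gained and 8 lost a call. Another 1 changed sign with a call before or after the change. Any change of sign without a call was counted among the 756, so these did not all have to keep their direction. Signals near the lower limit leave the direction of dim members uncertain.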
